A study of Mus musculus with 4 samples.

Results

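The nuclear subunits of respiratory complexes II to V are the proteins of the mitochondrial electron transport chain and ATP synthase whose genes lie in the nucleus. They were followed here in B16-F10 cells, a mouse melanoma line used as a model of metastasis. The genes were chosen by symbol: the 4 Sdh subunits of complex II, genes beginning Uqcr and Cyc1 for complex III, Cycs for cytochrome c, Cox4 to Cox8 with a letter for complex IV, and genes beginning Atp5 for complex V. Of 53465 genes in the count table, 50 matched, and 42 of them had at least 10 counts in 2 or more of the 4 libraries. These 42 were kept: 4 of complex II, 9 of complex III, cytochrome c, 11 of complex IV and 17 of complex V. All 42 also passed the expression filter of the test, which left 12320 genes. Another 7 genes whose symbols carry the pseudogene ending -ps, with or without a number, were left out. Of these, Uqcrh-ps2 would have passed the minimum, with 4 to 13 counts per library.

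Fluorescent B16-F10 cells had been infused into zebrafish, taken back from the fish and grown in IMDM with 10% serum before polyA RNA was sequenced. In 2 libraries the cells were marked in the labels as having extravasated, that is, left the vessels. In the other 2 they were marked as not having done so. All 4 libraries share the cell line, the fluorescent label, the passage through the fish and the culture medium, and no library of cells that never entered a fish was used here. The growth protocol given with every library speaks of extravasated cells, so the grouping rests on the extravasation field of the labels. No label states that the libraries of a group are separate cultures. P-values therefore measure the spread between these libraries, which may be technical. The title number is the same within each group and differs between groups, so it cannot be told apart from extravasation. Library totals ran from 11705904 to 19674733 counts.

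Complex II, succinate dehydrogenase, oxidises succinate in the tricarboxylic acid cycle and hands the electrons to ubiquinone. Complex III passes them from ubiquinone to cytochrome c, a small carrier of the intermembrane space, and complex IV passes them from cytochrome c to oxygen. Complexes III and IV pump protons, and complex V, ATP synthase, lets the protons back through its membrane part, Fo, and makes ATP in its catalytic part, F1. Complexes III, IV and V also hold subunits made from mitochondrial DNA, so the nuclear genes supply only part of each, whereas complex II is wholly nuclear.

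The sequences that follow are those to which the results return. The first set shows the start of the coding sequence of a GC-rich and a GC-poor subunit of complex III, Cyc1 and Uqcrb, and of complex V, Atp5d and Atp5j, because fold changes followed base composition. The start codon is in capitals. All were read from GENCODE M21 transcripts on GRCm38, in the sense of the gene. Cyc1 lies at chr15:76343523-76346260 on the plus strand, Uqcrb at chr13:66900617-66905378 on the minus strand, Atp5d at chr10:80138632-80145818 on the plus strand and Atp5j at chr16:84827866-84835625 on the minus strand. The GC content of these 120 bases is 75.8% in Cyc1, 44.2% in Uqcrb, 71.7% in Atp5d and 47.5% in Atp5j.
Cyc1: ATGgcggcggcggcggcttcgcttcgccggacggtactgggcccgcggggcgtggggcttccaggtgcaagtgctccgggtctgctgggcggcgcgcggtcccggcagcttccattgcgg
Uqcrb: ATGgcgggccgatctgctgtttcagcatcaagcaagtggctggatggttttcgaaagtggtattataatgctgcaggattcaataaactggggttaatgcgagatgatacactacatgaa
Atp5d: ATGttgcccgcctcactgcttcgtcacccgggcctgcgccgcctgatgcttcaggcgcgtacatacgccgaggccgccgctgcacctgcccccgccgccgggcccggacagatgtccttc
Atp5j: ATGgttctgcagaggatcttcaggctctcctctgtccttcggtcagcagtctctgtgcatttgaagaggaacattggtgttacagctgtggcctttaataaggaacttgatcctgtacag

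The second set shows the last 228 coding bases of the 3 genes for the ring-forming c subunit of ATP synthase, which code for the same 75 residues followed by a stop codon. Capitals in Atp5g2 and Atp5g3 mark bases that differ from Atp5g1. Atp5g1 lies at chr11:96068852-96075670, Atp5g2 at chr15:102662864-102672352 and Atp5g3 at chr2:73908447-73911326, all on the minus strand of GRCm38. Their GC content over these bases is 54.4%, 55.3% and 45.2%.
Atp5g1: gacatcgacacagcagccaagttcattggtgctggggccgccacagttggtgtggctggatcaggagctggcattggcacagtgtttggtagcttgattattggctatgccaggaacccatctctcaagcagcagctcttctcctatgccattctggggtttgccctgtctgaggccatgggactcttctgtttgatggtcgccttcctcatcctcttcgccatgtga
Atp5g2: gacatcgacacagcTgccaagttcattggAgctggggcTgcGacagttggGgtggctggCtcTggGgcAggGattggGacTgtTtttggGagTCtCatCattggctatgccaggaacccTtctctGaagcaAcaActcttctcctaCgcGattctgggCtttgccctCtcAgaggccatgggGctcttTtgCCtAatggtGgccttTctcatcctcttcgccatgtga
Atp5g3: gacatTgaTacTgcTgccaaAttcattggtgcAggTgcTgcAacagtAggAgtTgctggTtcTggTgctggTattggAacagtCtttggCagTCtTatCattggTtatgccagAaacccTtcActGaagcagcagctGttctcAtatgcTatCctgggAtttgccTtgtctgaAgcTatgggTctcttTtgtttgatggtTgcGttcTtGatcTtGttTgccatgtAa

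The third set shows promoter windows of 300 bases around the annotated start, most of each upstream of it, from RefSeq on GRCm38.p6. Capitals mark letters that match motifs of factors known to act on respiratory genes: NRF1, searched as GCGCATGC, GABPA as CCGGAAG, YY1 as AAGATGGC and the ERR factors as CAAGGTCA, on both strands. The window of Cycs is chr6:50566520-50566819 and holds the NRF1 letters, that of Sdhd is chr9:50603800-50604099 and holds the GABPA and ERR letters, and the one shown for Atp5j is chr16:84834927-84835226 and holds the YY1 and GABPA letters. All 3 lie on the minus strand, and the motifs in them do not overlap each other. They are shown because most of the subunits lay in 1 direction. Atp5j has a second window, chr16:84835576-84835875, which holds none of the searched letters and is not shown. The start of the gene span given above, 84835625 on the minus strand, lies in that second window and not in the one shown.
Cycs: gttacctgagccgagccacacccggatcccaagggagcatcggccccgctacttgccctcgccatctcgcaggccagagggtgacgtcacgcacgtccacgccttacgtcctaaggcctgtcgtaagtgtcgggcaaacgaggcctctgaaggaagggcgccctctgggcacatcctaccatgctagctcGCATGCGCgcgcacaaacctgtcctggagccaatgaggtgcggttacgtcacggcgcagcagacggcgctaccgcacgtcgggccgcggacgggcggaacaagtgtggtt
Sdhd: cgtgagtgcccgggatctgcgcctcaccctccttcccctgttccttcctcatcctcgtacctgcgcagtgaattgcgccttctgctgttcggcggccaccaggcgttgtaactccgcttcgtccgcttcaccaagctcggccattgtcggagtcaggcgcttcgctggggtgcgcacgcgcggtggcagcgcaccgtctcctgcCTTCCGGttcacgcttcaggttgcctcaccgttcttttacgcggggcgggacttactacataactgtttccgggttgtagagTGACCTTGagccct
Atp5j: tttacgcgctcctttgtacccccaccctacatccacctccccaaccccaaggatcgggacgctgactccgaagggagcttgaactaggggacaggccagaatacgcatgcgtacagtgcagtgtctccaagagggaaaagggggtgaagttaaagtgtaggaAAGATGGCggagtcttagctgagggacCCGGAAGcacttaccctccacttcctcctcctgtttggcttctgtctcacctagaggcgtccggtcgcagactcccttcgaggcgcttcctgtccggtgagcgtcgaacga

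Windows were found for 33 of the 42 genes and for 27025 genes in all. The 42 had passed a minimum count, whereas the 27025 include genes not expressed here. The shares below thus come from unlike sets, and a share over expressed genes alone was not taken. The NRF1 letters stood in 8 of the 33, or 24.2%, against 3.05% of all genes. GABPA letters stood in 12, or 36.4%, against 9.93%. YY1 letters stood in 3, or 9.09%, against 3.19%, and ERR letters in 3, or 9.09%, against 1.76%. The letters of NRF1 and GABPA were the most frequent of the 4 among the subunits. A match of letters is a description of the window and not a bound site.

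The comparison asked which subunits differed between cells that had left the vessels and cells that had not. With no correction, 25 of the 42 subunits rose in the extravasated libraries and 2 fell, Uqcrb and Atp5s (edgeR's quasi-likelihood test, p under 0.05 after Benjamini-Hochberg adjustment over all 12320 genes). Of all genes tested, 19.1% rose and 25.9% fell. The median log2 fold change was 0.52 over the 42 subunits and -0.02 over all genes. Levels are given as CPM, counts scaled to a common library size with TMM factors. In 35 subunits both extravasated libraries lay above both others, in 5 they lay below, and in Cox7b and Atp5h the groups overlapped. The same separation was not counted over all genes, so these counts have no background share beside them. The count of subunits that rose was 24 without extravasated library 1, beside 1642 of all genes, and 15 without extravasated library 2, beside 545 of all genes, and with either of these left out neither fall was called. With non-extravasated library 2 left out 1 fall was called.

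**Figure D1:**
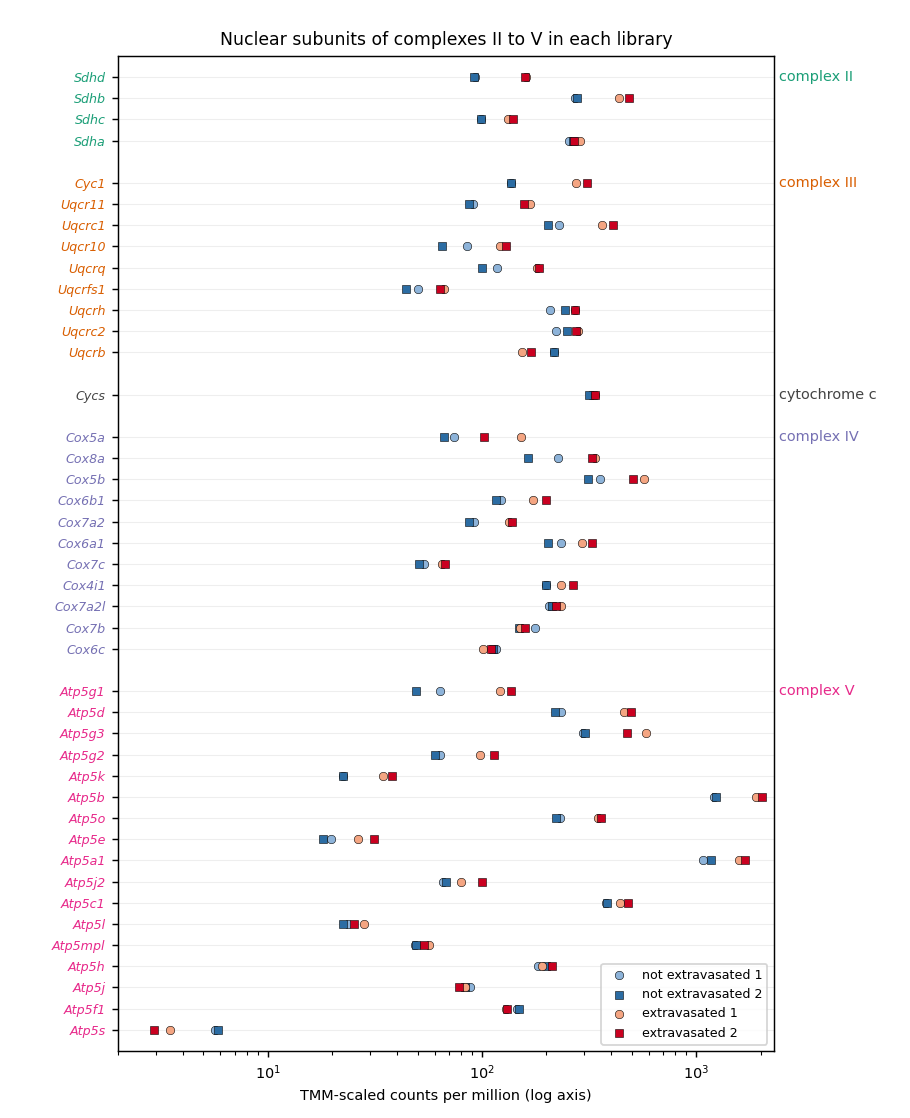
TMM-scaled CPM of each of the 42 subunits in the 4 libraries, on a log axis, ordered by complex and by fold change within it. Blue marks are the libraries not extravasated and red and orange marks the extravasated ones. Blue marks lie to the left of both others in 35 subunits, and the largest gap within a group is that of the extravasated libraries in Cox5a. The separation of the groups was not counted over all genes.

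Fold changes across the whole table followed base composition, which bears on every count here. Over 11122 nuclear coding genes, the Spearman correlation of the fold change with the GC content of the annotated transcript was 0.74, and with that of the coding sequence 0.66. These are correlations across genes of the same 4 libraries, and genes are not replicates. Over the 42 subunits the values were 0.57 and 0.79, and 0.00462 with transcript length. The origin of this dependence was not tested. A second fit therefore removed each library's trend with GC content and length of the principal transcript, the isoform that the APPRIS resource selects as the main one. In it 15 subunits rose and 1 fell, beside 8.17% and 5.79% of all genes, and the median of the subunits was 0.29. Without extravasated library 1 the corrected count was 2, beside 111 of all genes. Without extravasated library 2 no subunit and no gene in the table was called higher by edgeR in the corrected fit (0 and 0), while 15 subunits and 1200 of all genes were higher at an unadjusted p under 0.05.

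A fit on the GC content and length of the coding sequence alone was added after seeing the data, because the annotated principal transcripts of Atp5g1 and Atp5j gave values that turned on their untranslated parts. It called 18 subunits higher and 0 lower, beside 14.5% and 10.6% of all genes, with a median of 0.31. A fit with the longest coding transcript called 15 higher and 1 lower, beside 8.08% and 5.46% of all genes, with a median of 0.20. Of the 25 subunits that rose without correction, 11 also rose in the APPRIS fit and 11 in the coding fit. The 5 that rose in all 4 fits were Cyc1, Cox5a, Atp5g1, Atp5g3 and Atp5b. The 6 called in none were Uqcrh, Cox4i1, Cox7a2l, Cox6c, Atp5l and Atp5h. The fold change was above 0 in 36 of the 42 without correction, in 34 with the APPRIS or the longest transcript, and in 40 with the coding sequence.

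**Figure D2:**
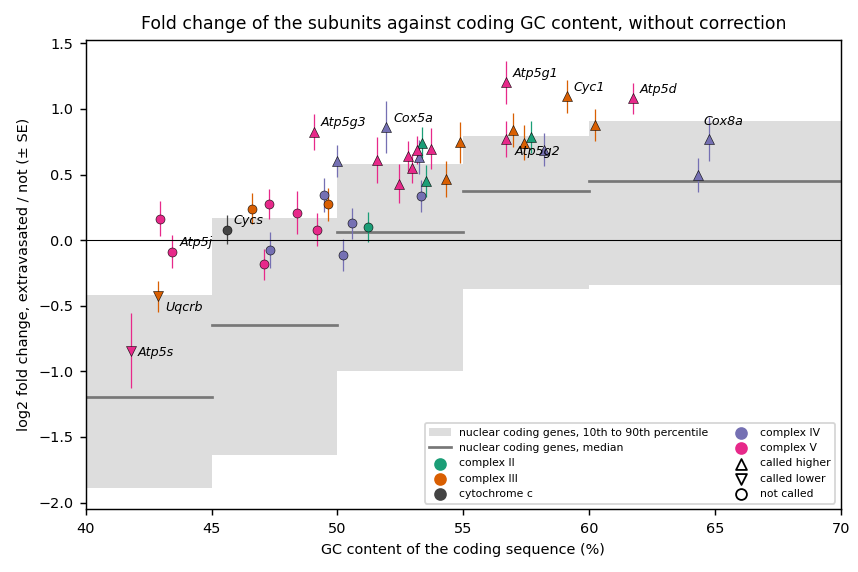
Log2 fold change without correction, with its standard error, against the GC content of the coding sequence for the 42 subunits. Grey bands span the 10th to 90th percentile of nuclear coding genes in each GC interval and grey lines their median. Symbols climb from Atp5s and Uqcrb on the left to Atp5d and Cox8a on the right, and 41 of 42 lie above the line of their interval.

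Set against genes of like base composition, the subunits lay high throughout. In the interval of coding GC from 40 to 45%, the 4 subunits had a median log2 fold change of -0.26 and the 1192 genes -1.19. From 45 to 50% the medians were 0.22 for 10 subunits and -0.64 for 2448 genes. From 50 to 55% they were 0.60 for 17 subunits and 0.06 for 3075 genes. The distance between the medians was smaller where GC content was higher. The 7 subunits from 55 to 60% had a median of 0.79, beside 0.37 for the genes, and the 4 above 60% had 0.82, beside 0.45. In all, 41 of 42, all but Cox6c, lay above the median of their interval by coding GC, and 39 by transcript GC. This is a description of these libraries, with no test. The intervals match GC content only, not length. The annotated transcript has a median of 851.5 bases in the subunits and 3037 in nuclear coding genes. An offset for GC alone called 22 subunits and 1197 of all genes higher, and one for GC and length 15 and 1007.

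Of all counts in a library, the 42 subunits together took 0.828% and 0.876% in the libraries not extravasated (95% Wilson intervals 0.823 to 0.833 and 0.871 to 0.880) and 1.184% and 1.181% in the extravasated ones (1.178 to 1.190 and 1.177 to 1.186). The intervals cover counting error only. Both extravasated shares lay above both others, and the ratio of the group means, 0.852 ± 0.0339% and 1.183 ± 0.00182% (SD, n = 2), was 1.39. With 2 libraries against 2, an exact two-sided permutation test cannot go below p = 0.3333. The ratio was 1.45 for complex V, 1.37 for complexes II and III, 1.33 for complex IV and 1.02 for cytochrome c. For the nuclear subunits of complex I, the NADH dehydrogenase, it was 1.23. These ratios rest on summed counts without correction, in which abundant genes weigh most. In the libraries not extravasated, the F1 genes took on average 0.303% of all counts and complex V as a whole 0.429%. Relative levels in bulk RNA do not tell more RNA per cell from a different mix of cells.

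**Figure D3:**
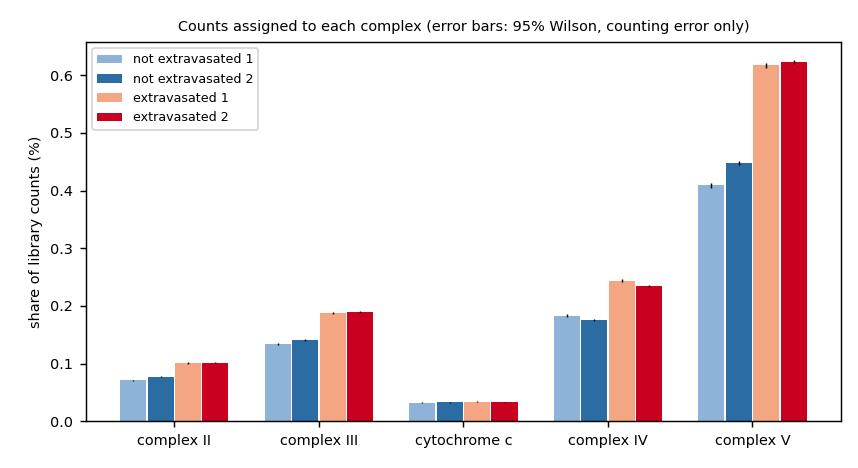
Share of each library's counts assigned to the kept subunits of each complex, in percent, with 95% Wilson intervals that cover counting error only. The extravasated bars stand above the others in complexes II, III, IV and V, and the 4 bars of cytochrome c lie between 0.0319 and 0.0337%.

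Complex II has 4 subunits: Sdha, the flavoprotein that holds the succinate site, Sdhb, the iron-sulphur protein, and the membrane anchors Sdhc and Sdhd. Without correction Sdhb, Sdhc and Sdhd rose and Sdha did not pass the test, and the median log2 fold change was 0.60. Sdhd stood at 92.96 and 91.5 CPM in the libraries not extravasated and at 159.7 and 158 CPM in the extravasated pair, which gave a log2 fold change of 0.79 ± 0.12 (standard error; by edgeR, adjusted p = 0.00257). Its 2 groups were far apart beside the small gaps within them. Sdhb stood at 273 and 278 CPM and, in the extravasated libraries, 438 and 484 CPM, with a log2 fold change of 0.74 ± 0.12 (edgeR adjusted p = 0.00282). Sdhc had 99.4 and 99.3 CPM and then 132 and 140.0 CPM, a log2 fold change of 0.45 ± 0.12 (edgeR adjusted p = 0.0193). Both genes were higher in both extravasated libraries.

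The catalytic Sdha was at 254 and 266 CPM in the libraries not extravasated and 287 and 270.4 CPM in the extravasated pair, which gave a log2 fold change of 0.10 ± 0.12 (edgeR adjusted p = 0.508). The extravasated libraries lay just above the others, by a margin within the standard error of the fit. The ratio of Sdhb to Sdha in uncorrected CPM was 1.07 and 1.05 in the libraries not extravasated and 1.53 and 1.79 in the extravasated ones. The corrected fits divided the subunits differently. With transcript GC and length Sdhd (0.74, edgeR adjusted p = 0.00917) and Sdhc (0.69, adjusted p = 0.015) rose, while Sdhb was at 0.21 (adjusted p = 0.238) and Sdha above it at 0.35 (adjusted p = 0.0784). With the coding sequence Sdhb (0.57, edgeR adjusted p = 0.0136) and Sdha (0.39, adjusted p = 0.0429) rose, while Sdhd was at 0.23 (adjusted p = 0.18) and Sdhc at 0.17 (adjusted p = 0.325). No subunit of complex II was thus called in all 4 fits, and none had a fold change below 0 in any.

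Complex III held 2 subunits called in opposite directions without correction. Of its 9 genes, 6 rose without correction and Uqcrb fell, and the median was 0.74. With the APPRIS transcript 4 rose and 0 fell, with a median of 0.32, and in the coding fit 3 rose and 0 fell, with a median of 0.27. Among all genes 19.1%, 8.17% and 14.5% rose in these fits, in the same order, and 25.9%, 5.79% and 10.6% fell. Cyc1, the haem-bearing cytochrome c1 that passes electrons to cytochrome c, stood at 137 and 137 CPM in the libraries not extravasated and at 276 and 309.5 CPM in the extravasated pair. Its log2 fold change was 1.09 ± 0.12 (edgeR adjusted p = 0.00104). The group mean was 2.14-fold higher in the extravasated libraries, with no overlap, and the gene also rose with transcript GC and length removed (0.60, edgeR adjusted p = 0.0167) and with the coding sequence (0.65, adjusted p = 0.00817). Uqcrb, a small subunit beside the ubiquinone site, had 218 and 217 CPM and, in the extravasated libraries, 153 and 169 CPM. Its log2 fold change was -0.43 ± 0.12 (edgeR adjusted p = 0.0233). Of the 50-base windows of the Uqcrb transcript, 43.2% occur in 4 annotated pseudogenes, so its counts are uncertain.

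Both extravasated libraries were thus below both others in Uqcrb, the reverse of Cyc1. The ratio of Cyc1 to Uqcrb CPM was 0.630 and 0.633 in the libraries not extravasated and 1.80 and 1.83 in the extravasated ones. Their coding sequences differ in composition in the way printed above, with 59.1% GC over the whole of Cyc1 and 42.9% over Uqcrb. In the corrected fits the fold change of Uqcrb turned above 0, to 0.29 (edgeR adjusted p = 0.287) with transcript GC and length and to 0.39 (adjusted p = 0.0783) with the coding sequence, and was not called. Over the 9 genes of the complex the Spearman correlation of the uncorrected fold change with transcript GC was 0.93, a description over genes that share the same libraries.

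Uqcrc1 and Uqcrc2 are the core proteins of complex III. Uqcrc1 stood at 229 and 203 CPM and, in the extravasated libraries, at 365 and 408 CPM, a log2 fold change of 0.84 ± 0.13 (edgeR adjusted p = 0.00256). Uqcrc2 had 222 and 249 CPM and then 282 and 274 CPM, a log2 fold change of 0.24 ± 0.12 (edgeR adjusted p = 0.139). The groups did not overlap in either gene, but only Uqcrc1 passed the test. With transcript GC and length removed the positions exchanged: Uqcrc2 rose by 0.95 (edgeR adjusted p = 0.00758) and Uqcrc1 had 0.32 (adjusted p = 0.109). With the coding sequence both rose, by 1.02 (edgeR adjusted p = 0.00374) and 0.56 (adjusted p = 0.0166).

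The Rieske iron-sulphur protein Uqcrfs1 rose without correction, with a log2 fold change of 0.47 ± 0.14 (edgeR adjusted p = 0.028), and with transcript GC and length (0.56, adjusted p = 0.0278). It had 0.22 (edgeR adjusted p = 0.256) with the coding sequence. Among the small subunits, Uqcr11, Uqcr10 and Uqcrq rose by 0.87, 0.74 and 0.74 on the log2 scale without correction. Only Uqcrq also rose with transcript GC and length removed (0.66), and none of the 3 with the coding sequence, where they had log2 fold changes of 0.08 to 0.14. Uqcrh, the acidic hinge protein near the cytochrome c site, was at 208 and 243 CPM and 273 and 272 CPM and was called in no fit (uncorrected log2 fold change 0.27, edgeR adjusted p = 0.114).

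Cytochrome c itself, Cycs, did not pass the uncorrected test. It stood at 325 and 315 CPM in the libraries not extravasated and 339 and 338 CPM in the extravasated pair, which gave a log2 fold change of 0.08 ± 0.11 (edgeR adjusted p = 0.584). The extravasated libraries lay above the others by a narrow margin. Its annotated transcript is long and poor in GC, at 3123 bases and 40.8%, and its coding sequence has 45.6%. The corrected fits called it higher, by 1.22 (edgeR adjusted p = 0.00509) with transcript GC and length and by 0.65 (adjusted p = 0.00861) with the coding sequence. Of its 50-base transcript windows, 28.2% occur in other annotated genes, so its counts are uncertain where the counting dropped or split such reads.

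Complex IV, cytochrome c oxidase, gave 6 genes that rose among 11 without correction, none that fell, and a median of 0.50. With the APPRIS transcript 3 rose, with a median of 0.18, and in the coding fit 2 rose, with a median of 0.095. Among all genes 19.1%, 8.17% and 14.5% rose in these fits, in the same order. The coding count, 18.2% of the 11, was near that share, and the median of all genes in that fit was 0.068. Cox5a and Cox5b, which sit against the catalytic core on the matrix side, led with Cox8a. Cox5b stood at 355 and 314 CPM and, in the extravasated libraries, 572 and 507 CPM, a log2 fold change of 0.69 ± 0.13 (edgeR adjusted p = 0.00491). Cox5a had 74.2 and 66.2 CPM and then 152 and 103 CPM, with a log2 fold change of 0.86 ± 0.20 (edgeR adjusted p = 0.0129). The extravasated libraries differed 1.49-fold from each other in Cox5a, the largest gap within a group among the 42 subunits, and the lower of them was still above both others. Without 1 library at a time, its uncorrected log2 fold change ranged from 0.65 to 1.16.

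Cox5a was the complex IV gene that rose in every fit, by 0.74 (edgeR adjusted p = 0.018) with transcript GC and length and by 0.69 (adjusted p = 0.0302) with the coding sequence. Cox5b also rose with transcript GC and length (0.62, edgeR adjusted p = 0.0155) but had 0.09 (adjusted p = 0.678) with the coding sequence, whose GC content is 58.2% against 49.0% in the transcript. Of the 50-base transcript windows of Cox5b, 25.9% occur in another annotated gene. Cox8a, Cox6b1, Cox7a2 and Cox6a1 rose by 0.77, 0.63, 0.60 and 0.50 on the log2 scale without correction. None of these rose with transcript GC and length, and Cox7a2 did with the coding sequence (0.54, edgeR adjusted p = 0.0157). Cox6a1 had values below 0 in the corrected fits, -0.24 and -0.12, neither called.

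Cox4i1, the general form of subunit 4, which binds adenine nucleotides, was at 199 and 198 CPM and 234 and 267 CPM. Its log2 fold change was 0.34 ± 0.12 (edgeR adjusted p = 0.0582), which narrowly missed the threshold of 0.05, and it had -0.36 with transcript GC and length and 0.07 with the coding sequence. Both extravasated libraries were above the others, and no fit called the gene. Its annotated exons overlap those of Emc8 on the opposite strand. Emc8 had 547 and 791 counts in the libraries not extravasated and 826 and 1396 in the extravasated ones. The part that reads of Emc8 have in the Cox4i1 counts was not tested. Cox4i2, the form of this subunit known from hypoxia and lung, had no count in any library, which allows at most 0.158 to 0.260 CPM per library for a limit of 3 counts. Cox7a2l, which links complexes III and IV into supercomplexes, was at 206 and 212 CPM and 234 and 222 CPM (log2 fold change 0.13 ± 0.12, edgeR adjusted p = 0.396) and was called in no fit.

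Cox7c, Cox7b and Cox6c were not called without correction. Cox7b, whose groups overlapped at 178 and 149 CPM and 150.1 and 159 CPM, rose by 0.76 with transcript GC and length (edgeR adjusted p = 0.00875) and had 0.27 with the coding sequence. Cox7c rose only in the fit with the longest transcript, by 1.20 (edgeR adjusted p = 0.00959). Of its 50-base transcript windows, 52.95% occur in 3 annotated pseudogenes, so its counts are uncertain. Cox6c had both extravasated libraries below the others, at 116 and 113 CPM and then 101 and 111 CPM, and was called in no fit. It overlaps Vps13b on the opposite strand, whose counts were 1014 and 1017 in the libraries not extravasated and 291 and 459 in the extravasated ones, and, although the library kit marks strand, the strand setting of the counting is not given in the sources used here, so reads of the pair cannot be told apart.

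The tissue forms of complex IV genes were near or at 0. Besides Cox4i2, Cox6b2, Cox7b2, Cox8b and Cox8c had no count in any library. The muscle forms Cox6a2 and Cox7a1 had at most 6 and 19 counts in a library. Cox6c2, which matched by symbol but is annotated as a pseudogene, had at most 5. Cox7a1 was nearest to the minimum, with 10 or more counts in 1 library only. On the other side of it, Atp5s was the lowest kept gene, with 65, 101, 46 and 56 counts. Of 5 muscle markers, Myh6 and Myh7 were at 0 and the sum of the list was 1.47 to 2.52 CPM.

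Complex V had 10 of 17 genes that rose without correction, 1 that fell, Atp5s, and a median of 0.55. With GC and length of the APPRIS transcript 5 rose and 1 fell, with a median of 0.24, and with those of the longest transcript 4 rose and 1 fell, with a median of 0.16. In the coding fit 10 rose, none fell and the median was 0.48. Among all genes 19.1%, 8.17%, 8.08% and 14.5% rose in these fits, in the same order, and 25.9%, 5.79%, 5.46% and 10.6% fell. In the catalytic F1 part, which Atp5a1, Atp5b, Atp5c1, Atp5d and Atp5e form, 4 of 5 rose without correction and 4 of 5 in the coding fit, but not the same 4: Atp5e dropped out and Atp5c1 came in. With the APPRIS or the longest transcript 2 of the 5 rose, and the medians were 0.42 and 0.19. The F1 genes took 0.287% and 0.318% of counts in the libraries not extravasated and 0.442% and 0.456% in the extravasated ones, a ratio of means of 1.48.

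Atp5b, the catalytic beta subunit, was the most abundant of the 42 by counts per kilobase of annotated transcript, at 638 CPM per kilobase in the libraries not extravasated and 1029 in the extravasated ones. Its levels were 1210.2 and 1236 CPM and then 1914 and 2029.9 CPM, a log2 fold change of 0.69 ± 0.11 (edgeR adjusted p = 0.00267). The groups were far apart and each pair of libraries close together. The rise was also called with transcript GC and length (0.50, edgeR adjusted p = 0.0275) and with the coding sequence (0.70, adjusted p = 0.00666). Its partner Atp5a1, the alpha subunit, had 1072 and 1173 CPM and 1592 and 1688 CPM, a log2 fold change of 0.55 ± 0.11 (edgeR adjusted p = 0.00705). Atp5a1 rose in the APPRIS and coding fits (0.52 and 0.58) but not with the longest transcript (0.19, edgeR adjusted p = 0.295).

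In the central stalk, Atp5d, the delta subunit, stood at 235 and 219 CPM and, in the extravasated libraries, at 463 and 497 CPM. Its log2 fold change was 1.08 ± 0.12 (edgeR adjusted p = 0.000936, the smallest of the 42 subunits). The group mean was 2.12-fold higher in the extravasated libraries, with no overlap. The GC-rich start printed above belongs to a coding sequence of 61.7% GC, and the corrected values were 0.37 (edgeR adjusted p = 0.0643) with transcript GC and length and 0.48 (adjusted p = 0.0215) with the coding sequence. The gamma subunit Atp5c1, the rotating shaft, had 379 and 383 CPM and 443 and 479 CPM, a log2 fold change of 0.27 (edgeR adjusted p = 0.0817), and rose by 0.88 in the coding fit (adjusted p = 0.00489). It was not called with the APPRIS transcript (0.42, edgeR adjusted p = 0.0688) or the longest one (0.18, adjusted p = 0.345). The small epsilon subunit Atp5e rose by 0.61 (edgeR adjusted p = 0.0247) without correction only.

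The c subunit forms the rotating ring of Fo, and its 3 genes code for the same mature end, as printed above. Over the 228 bases compared, Atp5g1 and Atp5g2 share 194 bases (85.1%), Atp5g1 and Atp5g3 182 (79.8%) and Atp5g2 and Atp5g3 179 (78.5%), and all 75 residues are identical in each pair. No run of 30 bases is common to any pair of their annotated transcripts. All 3 genes rose without correction. Atp5g1 stood at 63.5 and 49.4 CPM and then 122 and 137 CPM, the largest log2 fold change of the 42 subunits, 1.20 ± 0.16 (edgeR adjusted p = 0.0017). Atp5g3 had 297 and 302 CPM and 586 and 476 CPM, a log2 fold change of 0.82 ± 0.13 (edgeR adjusted p = 0.00322). The groups stood apart in both genes, and the extravasated libraries were 1.23-fold apart in Atp5g3.

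Atp5g2 was at 63.5 and 60.4 CPM and, in the extravasated libraries, 97.8 and 114 CPM, with a log2 fold change of 0.77 ± 0.14 (edgeR adjusted p = 0.00433). Of its 50-base transcript windows, 87.4% occur in 2 annotated pseudogenes, so its counts are uncertain. For Atp5g1 the share was 10.6% and for Atp5g3 it was 0. Atp5g1 and Atp5g3 rose in all 4 fits, and Atp5g2 without correction only (0.10 and 0.24 in the APPRIS and coding fits). The corrected value of Atp5g1 was 1.82 with a principal transcript of 4715 bases at 46.8% GC, and 0.66 (edgeR adjusted p = 0.0167) with its coding sequence at 56.7% GC. The longest transcript is the same one and gave 1.78, so its size differed between the whole transcript and its coding part. Together the 3 genes summed to 425 and 412 CPM in the libraries not extravasated and 806 and 727 CPM in the extravasated ones. Atp5g3 made up 70.1% and 73.3% of that sum in the former and 72.7% and 65.4% in the latter, so its part of the summed counts overlapped between groups.

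**Figure D4:**
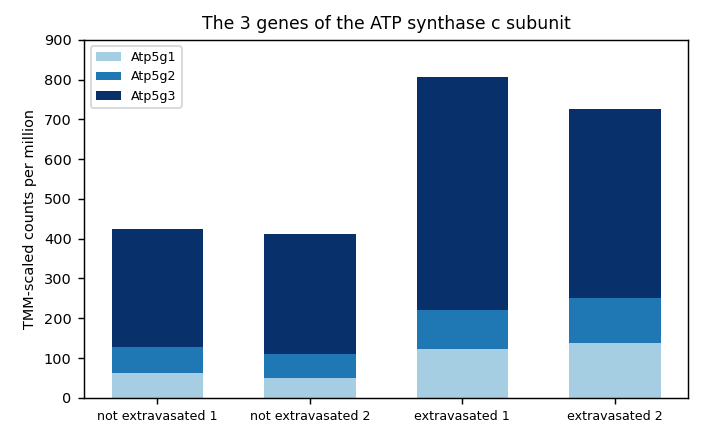
TMM-scaled CPM of Atp5g1, Atp5g2 and Atp5g3, stacked for each of the 4 libraries. The sum is 412 to 425 CPM in the libraries not extravasated and 727 to 806 CPM in the extravasated ones, with Atp5g3 the largest block in each.

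The peripheral stalk holds F1 still against the ring, and its genes differed in their values. Atp5o, the oligomycin sensitivity protein at its head, rose by 0.64 (edgeR adjusted p = 0.00433) without correction and by 0.48 in the coding fit (adjusted p = 0.0212). It was not called with the APPRIS or the longest transcript (0.10, edgeR adjusted p = 0.555, and 0.09, adjusted p = 0.609). Atp5h, the d subunit, had overlapping groups, at 183 and 198 CPM and 191 and 212 CPM, and was called in no fit. Atp5f1, the b subunit, lay lower in both extravasated libraries, at 146 and 149 CPM and then 129 and 131 CPM (log2 fold change -0.18 ± 0.12, edgeR adjusted p = 0.237), and rose by 0.42 in the coding fit (adjusted p = 0.0396). With the APPRIS and the longest transcript it stayed below 0 and was not called (-0.13, edgeR adjusted p = 0.491, and -0.17, adjusted p = 0.339). Exons of Atp5f1 overlap those of Wdr77 on the opposite strand, which had 265 and 341 counts and, in the extravasated libraries, 291 and 470. The part of Wdr77 reads in the Atp5f1 counts was not tested. Of the 50-base windows of Atp5h, 50.5% occur in other annotated genes, of Atp5o 35.5% and of Atp5f1 23.2%.

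Atp5j, coupling factor F6 of the same stalk, was the gene whose corrected calls had opposite signs. It stood at 88.3 and 83.5 CPM and, in the extravasated libraries, at 83.1 and 78.5 CPM, a log2 fold change of -0.09 ± 0.13 (edgeR adjusted p = 0.598). Both extravasated libraries lay just below the others. It fell by 0.73 with GC and length of the principal transcript (edgeR adjusted p = 0.0103) and rose by 0.71 with the coding sequence (adjusted p = 0.0106). The principal transcript has 56.0% GC and its coding part 43.4%. The longest transcript is the same one and gave -0.74 (edgeR adjusted p = 0.01), so the direction differed between the whole transcript and its coding part. The gene also lies head to head with Gabpa. That gene codes for the factor whose motif letters stand in the Atp5j window shown above, but not in its second window. The annotated exons of Atp5j and Gabpa overlap on opposite strands. Gabpa had 1373 and 1845 counts in the libraries not extravasated and 543 and 729 in the extravasated ones. The part that reads of Gabpa have in the Atp5j counts was not tested.

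Among the small membrane subunits, Atp5k and Atp5j2, the e and f subunits, rose by 0.70 (edgeR adjusted p = 0.00982) and 0.43 (adjusted p = 0.0474) without correction and in no corrected fit. Atp5l, the g subunit, was called in none, and 68.5% of its windows occur in 13 other annotated genes. Atp5mpl, a small proteolipid of the ATP synthase, had 0.16 without correction, rose by 0.80 in the APPRIS fit (edgeR adjusted p = 0.0234) and by 0.84 in the coding fit (adjusted p = 0.0098), and had -0.43 with the longest transcript (adjusted p = 0.0575). Atp5s, also known as coupling factor B, is named Dmac2l in RefSeq and was counted under complex V by its symbol alone. It was at 5.64 and 5.84 CPM and, in the extravasated libraries, 3.48 and 2.95 CPM, and fell by 0.84 ± 0.29 on the log2 scale (edgeR adjusted p = 0.0458). Both extravasated libraries were below both others, at the lowest level of the 42 genes. In the corrected fits Atp5s had values above 0, 0.18 and 0.12, neither called.

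**Figure D5:**
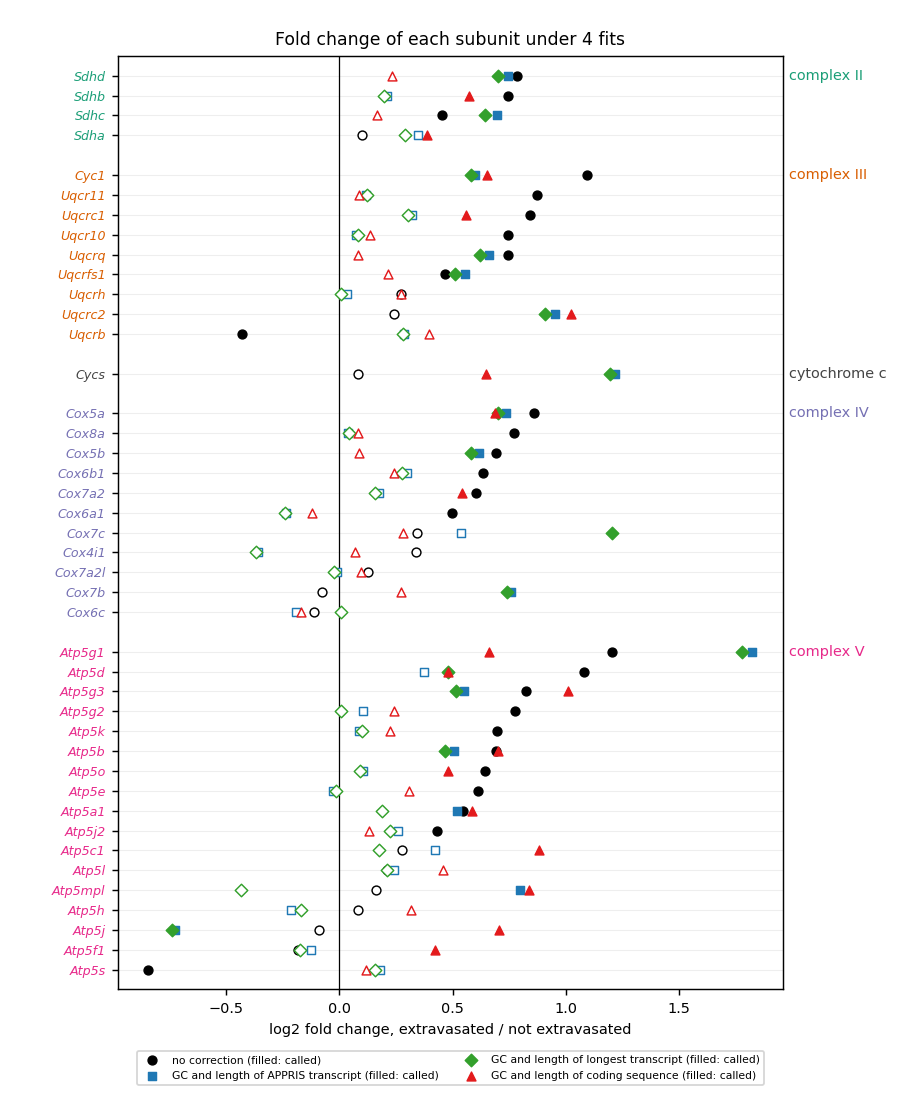
Log2 fold change of each of the 42 subunits in 4 fits: without correction and with GC and length of the APPRIS transcript, of the longest transcript or of the coding sequence removed. Filled marks have an edgeR adjusted p under 0.05. Cyc1, Cox5a, Atp5g1, Atp5g3 and Atp5b are filled in all 4, and the filled marks of Atp5j lie on both sides of 0.

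The same libraries gave few counts for most subunits made from mitochondrial DNA. Only mt-Cytb of complex III and mt-Co1 of complex IV entered the test. They had log2 fold changes of -0.16 (edgeR adjusted p = 0.637) and -0.22 (adjusted p = 0.180). For mt-Cytb the levels were 35074 and 24884 CPM in the libraries not extravasated and 21535 and 32138 CPM in the extravasated ones, so the groups overlapped. For mt-Co1 they were 20279 and 18236 CPM and, in the extravasated libraries, 15187 and 17814 CPM, both below both others. The genes mt-Co2, mt-Co3, mt-Atp6 and mt-Atp8 were below 0.5 CPM in every library. Whether their reads were lost in mapping or counting was not tested, so these counts do not show that their RNA was scarce. A difference between the mitochondrially encoded genes and the nuclear subunits was not tested.

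Other genes of the pathway, in lists put together with earlier results of these data known, were counted in the same fits. Of all genes tested, 19.1% rose and 25.9% fell without correction, and 8.17% and 5.79% with transcript GC and length. Of 35 tested nuclear subunits of complex I, 19 rose and 1 fell without correction (median 0.49), and 5 rose and 2 fell with transcript GC and length (0.08). Mitochondrial ribosomal proteins gave 40 higher and 2 lower of 77 (0.41), and 21 and 0 with the correction (0.27). Of 13 tricarboxylic acid cycle enzymes other than Sdh, 7 rose, led by malate dehydrogenase Mdh2 (0.80), oxoglutarate dehydrogenase Ogdh (0.74) and isocitrate dehydrogenase subunit Idh3g (0.66), and 2 fell, Dld (-1.49) and Sucla2 (-1.10). With the correction 5 rose, Cs, Ogdh, Suclg1, Suclg2 and Fh1, and 0 fell. Mdh2 (0.30, edgeR adjusted p = 0.127) and Idh3g (0.35, adjusted p = 0.0825) were not called with it.

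Assembly factors of the complexes were counted beside the same shares of all genes, 19.1% higher and 25.9% lower without correction and 8.17% and 5.79% with it. Of 6 for complex III, 4 rose without correction, among them Uqcc3 (0.83), Uqcc2 (0.62) and the Rieske chaperone Bcs1l (0.74), and 0 with it. Of 22 tested for complex IV, 7 rose and 2 fell without correction, and 3 rose (13.6%) and 1 fell (4.55%) with it. Cox10, which makes the haem of the enzyme, rose by 0.91 (edgeR adjusted p = 0.00267) and also with the correction, by 0.57. Cox17, the copper chaperone, fell by 2.08 (edgeR adjusted p = 0.00599), and had -1.44 with the correction, where it was also called lower. Its levels were 3.73 and 2.95 CPM in the libraries not extravasated and 0.833 and 0.737 CPM in the extravasated ones, which is low throughout. None of 4 for complex II was called in either fit. For complex V, Fmc1 rose without correction (0.71), and with it Tmem70 rose (0.80) and the inhibitor Atpif1 fell by 0.47.

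Among 10 regulators of respiratory genes, 2 rose and 4 fell without correction, beside 19.1% and 25.9% of all genes. Esrra, the oestrogen-related receptor alpha whose motif letters are shown for Sdhd, stood at 23.7 and 16.8 CPM and, in the extravasated libraries, at 54.3 and 50.8 CPM. Its log2 fold change was 1.38 (edgeR adjusted p = 0.00201), and 0.86 with the correction (adjusted p = 0.0278). Both extravasated libraries were above both others. The coactivator Pprc1 rose by 0.44 without correction and was not called with it (0.25, edgeR adjusted p = 0.173). Gabpa (-1.51), Gabpb1 (-0.62), Tfam (-0.67) and Tfb2m (-0.90) fell without correction, and none of these 4 was called with it, Gabpa then having -0.25 (edgeR adjusted p = 0.224). Nrf1 was called in neither fit.

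The libraries carried the markers of the labelled cell line. All 7 melanocyte lineage genes were detected, and their summed level was 23904 to 30903 CPM, overlapping between groups. Without correction the melanosome protein Pmel (0.76) and the neural crest factor Sox10 (0.77) were called higher and the melanocyte factor Mitf (-1.20) and tyrosinase Tyr (-0.60) lower, on the log2 scale. With the correction Tyr (0.77) and the melanosome protein Mlana (0.74) were called higher, and Pmel, Sox10 and Mitf were not called. Summed levels of other cell types were 8.45 to 11.3 CPM for 5 fibroblast genes, with Lum and Dcn at 0, 3.63 to 4.69 CPM for 4 leukocyte genes, with Ptprc, Itgam and Cd3e at 0, and 0.0868 to 0.984 CPM for 4 endothelial genes, with Cdh5, Kdr and Tek at 0. The fibroblast sum was 8.77 and 8.45 CPM in the libraries not extravasated and 11.3 and 10.7 CPM in the extravasated ones, and its part in the results was not tested. Of its genes Col1a1 was called higher (0.83) and Pdgfra lower (-1.46) without correction, and neither with it.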

How the data were processed

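PolyA RNA from B16-F10 cells was sequenced in 4 libraries, 2 for each state of the extravasation field in the labels, after total RNA extraction with a miRNeasy kit and library preparation with a TruSeq stranded mRNA kit, per the labels' protocols. The authors deposited raw read counts per gene. bcl2fastq 2.18.0.12, STAR 2.5.3a and GRCm38 are named per the submitters' processing notes, and the counter, annotation release, strand setting and filters are not given in the sources used here. Of 53465 genes, 53274 received a symbol. Library totals of 11705904 to 19674733 counts set the counting error.

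The counts were tested with edgeR 4.0.16 in R 4.3.3 over all genes, after its own filter on low counts and scaling by TMM. The filter asked for a level worth 10 counts at the median library size in at least 2 libraries, and 15 counts in all. The quasi-likelihood test was two-sided, with robust moderation and group as the only term. Genes were called at a Benjamini-Hochberg adjusted p under 0.05. Standard errors come from the fold change and its F statistic. The corrected fits smoothed each library's deviations in log2 CPM (prior count 2) against GC content and log2 length of a gene's transcript (mgcv 1.9.3, basis size 10, known for 99.9% of tested genes in GENCODE M21) and entered the smooth as an offset, with none for mitochondrially encoded genes. The correction also removes any true change that goes with GC content or length. Alternatives were RLE, upper quartile and no scaling, DESeq2 1.42.0, limma-voom (limma 3.58.1), other filters, moderation that is not robust, a term for the kind of suffix in the titles, other transcript choices and leaving out each library. The method was tested on simulated counts. Genes were named by a rule that took every kept subunit, and from the other lists up to 3 called genes in each direction with the smallest adjusted p, beside which a few further called or listed genes were named after their values were seen. The members, lists and tests were chosen with earlier results of these data known. Labels do not number replicates: the numbers 1 and 2 only name libraries.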

Additional observations from a re-analysis of the deposited data

How the results depend on the processing

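The count of subunits that rose, 25 without correction, lay between 22 and 28 under the other scalings, filters and tools, no robust moderation, the suffix term and the offset for GC alone. It was 15 with GC and length of the principal or the longest transcript, and 18 with the coding sequence, or with the offset and suffix term together. Leaving out 1 library gave 15 to 25 without and 0 to 19 with the offset. The count that fell, 2, was 0 with upper quartile factors or the coding sequence, 1 with DESeq2, no expression filter, GC alone or either transcript, and 0 to 2 with 1 library left out. Over all genes 2355 rose and 3196 fell without correction, against 1007 and 713 with the principal transcript, 996 and 673 with the longest, 1197 and 991 with GC alone, 1783 and 1300 with the coding sequence and 1672 and 1243 with offset and suffix term. Without 1 library the ranges were 0 to 2758 higher and 0 to 3541 lower. The summed share differed by 0.331 points between groups, or 0.359 when taken of nuclear counts. The suffix kind, the only block the labels offer, gave 26 higher, and samples of like suffix deviated with a correlation of 0.0949 over all genes, so they are not shown to be paired.

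Directions turned in these cases (log2 fold changes), and the cause was not tested. With GC and length of the principal transcript the values were Uqcrb 0.29, Cox6a1 -0.24, Cox4i1 -0.36, Cox7a2l -0.010, Cox7b 0.76, Atp5e -0.026, Atp5h -0.21 and Atp5s 0.18. Adding the suffix term as a replicate block, the same genes had Uqcrb 0.29, Cox6a1 -0.24, Cox4i1 -0.36, Cox7a2l -0.0095, Cox7b 0.76, Atp5e -0.043, Atp5h -0.22 and Atp5s 0.20. With the longest transcript they were Uqcrb 0.28, Cox6a1 -0.24, Cox4i1 -0.37, Cox7a2l -0.022, Cox7b 0.74, Cox6c 0.0079, Atp5e -0.016, Atp5mpl -0.43, Atp5h -0.17 and Atp5s 0.16. With GC alone they were Uqcrb 0.68, Cox4i1 -0.11, Cox7b 1.07, Cox6c 0.14, Atp5f1 0.013 and Atp5s 0.39. With the coding sequence they were Uqcrb 0.39, Cox6a1 -0.12, Cox7b 0.27, Atp5j 0.71, Atp5f1 0.42 and Atp5s 0.12. With upper quartile factors they were Cox7b 0.022 and Atp5j 0.0057. Over the fits with 1 library left out, with and without the offset, values ran from -0.079 to 0.95 in Uqcr10, -0.16 to 0.39 in Uqcrh, -0.46 to 0.48 in Uqcrb, -0.13 to 1.02 in Cox8a, -0.33 to 0.67 in Cox6a1, -0.44 to 0.53 in Cox4i1, -0.044 to 0.20 in Cox7a2l, -0.19 to 0.82 in Cox7b, -0.45 to 0.049 in Cox6c, -0.012 to 0.98 in Atp5g2, -0.13 to 0.86 in Atp5k, -0.27 to 0.82 in Atp5e, -0.40 to 0.25 in Atp5h and -0.87 to 0.44 in Atp5s. With a lone library in a group, it is assumed to vary like the other group. At this depth 8 matched genes stayed below the minimum, and with 2 libraries a group a missed call does not show that levels are equal.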
